A study of Mus musculus with 4 samples.

Results

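The genes described here are 40 DNA replication genes of S phase, chosen by symbol from a list of genes that are switched on when cells copy their DNA. All 40 symbols were found among the 27998 genes listed in each table, and the rule that names them uses no measured value. The cells were total mammary epithelium (sorted as Lin-CD24+) of FVB/NJ mice, profiled with the 10x Chromium Single Cell 3′ platform, which counts RNA molecules by unique molecular identifiers (UMIs) at the 3′ end of transcripts. Pubertal glands were taken at 5 weeks of age. Adult glands were taken at 10 weeks in estrus or in diestrus, phases of the ovarian cycle read from vaginal cytology, and per the study's methods the adult glands of 2 mice were pooled for each phase. No genotype or drug differed between the groups. Each stage had 1 library, so differences between stages are given as values with counting intervals and without a test, while the 4 lineage classes were compared over the 3 libraries.

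Before S phase, the origin recognition complex, Cdc6 and Cdt1 load the hexameric MCM helicase (Mcm2 to Mcm7) onto DNA, and geminin (Gmnn) blocks its reloading. Cdc45 and the GINS complex then turn the helicase on, and the polymerases copy both strands with the sliding clamp PCNA, while ribonucleotide reductase and thymidylate synthase supply the nucleotides. Most of these genes are controlled by the E2F family of transcription factors at the G1/S boundary. In the mammary gland, the ovarian hormones drive cycles of epithelial division, with many dividing cells in the progesterone-rich diestrus phase.

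The first puberty table held 5428 barcodes, with 2729 for estrus and 2439 for diestrus, at medians of 4103, 3236 and 3974 UMIs per cell. The labels state 5387, 2729 and 2439 cells. A second puberty table shared 5387 barcodes with the first, which is 99.8% of the smaller table, and the totals of the shared barcodes had a correlation of 0.997, so both were counted as 1 library and the first was used. Other pairs of tables shared 13 to 24 barcodes. Cells were put into basal-like, luminal progenitor-like (LP), mature luminal-like (ML) and intermediate luminal-like (Lum Int) classes by marker genes, and these are called basal, LP, ML and Lum Int cells from here on. The classes held 1050 to 1308 basal, 471 to 1770 LP, 681 to 2183 ML and 93 to 232 Lum Int cells per library. The summed basal seed markers were at 21619 to 33781 CPM (UMIs per 1000000 UMIs) in basal cells and at 45.2 to 225 in the luminal classes. Lum Int cells, which carry LP and ML markers together, had medians of 5984 to 7051 UMIs against 3179 to 4670 in LP and ML cells. No doublet caller was run, and the part of doublets in the Lum Int class was not tested. The 5 immune markers together reached 0 to 1.07 CPM in the 12 sums of a class and library, with Cd3e at 0 in all. The 5 endothelial markers together were at 3.87 to 21.8 CPM. Among them Cdh5 and Emcn were at 0 in all sums, and Pecam1 and Egfl7 had UMIs in all. The 5 fibroblast markers together were at 2.19 to 707 CPM, against 25504 to 29998 in the 7 to 22 cells per library left out as not epithelial. The value of 707, in ML cells of diestrus, was from Dcn alone, with Col1a1, Col1a2, Col3a1 and Pdgfra at 0.

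The replication genes were at their highest summed level in basal cells, and in diestrus. All levels below are in CPM, the UMIs of a gene per 1000000 UMIs of a class in a library, scaled with the trimmed mean of M values (TMM), with exact Poisson 95% intervals that cover counting error only. In basal cells the 40 genes together were at 1605 (1566 to 1644) in puberty, 1148 (1118 to 1179) in estrus and 2075 (2036 to 2116) in diestrus. In LP cells the summed level was 1220 (1193 to 1249), 919 (875 to 965) and 1928 (1877 to 1981). In ML cells it was 1029 (1010 to 1048), 834 (807 to 861) and 1289 (1252 to 1328). Lum Int cells had the lowest level in every library, at 815 (768 to 864), 414 (371 to 460) and 973 (899 to 1052). The order was therefore diestrus, puberty, estrus in all 4 classes, and basal, LP, ML, Lum Int in all 3 libraries, with no overlap of the counting intervals between neighbours in either order. The place of LP above ML cells rests on the TMM scaling in puberty and estrus: without it LP cells were at 963 (941 to 985) and ML cells at 982 (964 to 1000) in puberty, at 886 (843 to 930) and 982 (950 to 1014) in estrus, and at 1947 and 1314 in diestrus. Puberty and estrus were then also level in ML cells, while the other orders held. These sums rest on 345 to 11207 UMIs of the 40 genes, or 0.0458% to 0.219% of the UMIs of a class. In sums over cells, more cells in S phase, more RNA per S phase cell and more RNA in other cells cannot be told apart.

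**Figure D1:**
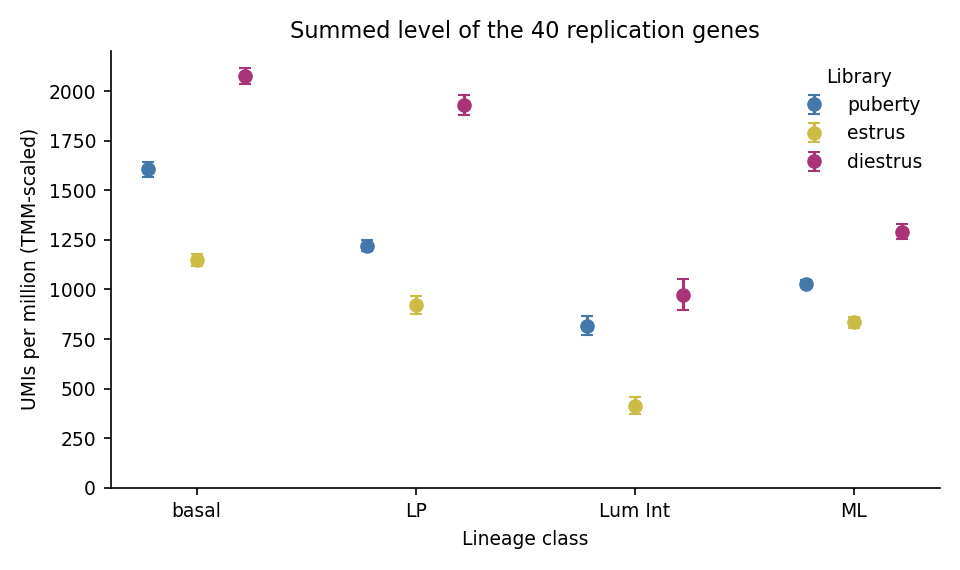
Summed level of the 40 replication genes (y axis, TMM-scaled CPM) in each lineage class (x axis) and library (colour), with bars for exact Poisson 95% intervals. Diestrus stands highest and estrus lowest in every class, from 2075 in basal cells of diestrus down to 414 in Lum Int cells of estrus.

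The diestrus library stood 1.81-fold (1.75 to 1.87) above estrus in basal cells, 2.10-fold (1.98 to 2.22) in LP cells and 1.55-fold (1.48 to 1.62) in ML cells. Puberty stood 1.40-fold (1.35 to 1.45), 1.33-fold (1.26 to 1.40) and 1.23-fold (1.19 to 1.28) above estrus in the same classes. Against the mean of the adult libraries, puberty differed by a log2 ratio of -0.01 for basal cells, -0.22 for LP cells and -0.04 for ML cells. Without TMM scaling the median of all genes shifted by -0.12, -0.33 and -0.21 in that comparison, and in ML cells it shifted by -0.22 between diestrus and estrus. The members are read below against these shifts: the ML diestrus ratio of the sum was 0.63 on the log2 scale with TMM and 0.42 without. The ML puberty ratio became 0.10 without the 5% of cells with most UMIs, so its sign was not stable.

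Gene by gene, the order of the summed level was carried by most members. Of the 40 genes, 39 were higher in diestrus than in estrus in basal cells, 39 in LP, 38 in ML and 34 in Lum Int cells. A subset had at least 20 CPM in either library. Of these members, 26 of 27 in basal, 25 of 26 in LP and 22 of 22 in ML cells were higher in diestrus. Of all genes at that level, 2516 of 5302, 2419 of 5237 and 2561 of 5013 were higher. The full order of diestrus above puberty above estrus held for 30 members in basal, 32 in LP, 35 in ML and 21 in Lum Int cells. The share of all genes with this order was not computed, nor the direction of all genes in Lum Int cells. The counts over all 40 genes take each level as it stands, whatever its number of UMIs. Libraries are shared between all members, so the genes are not independent.

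The MCM subunits form the ring that unwinds the DNA. Mcm2 (chr6:88883474-88898780 on GRCm38) was at 25.2, 16.6 and 51.3 CPM in basal cells of puberty, estrus and diestrus, at 21.9, 7.98 and 43.7 in LP cells, at 12.4, 3.60 and 32.2 in Lum Int cells and at 24.5, 23.0 and 36.4 in ML cells. Mcm3 (chr1:20802968-20820312) was at 29.7, 19.96 and 67.8 in basal, 22.2, 9.70 and 53.4 in LP, 9.46, 2.40 and 24.6 in Lum Int and 18.6, 12.5 and 22.9 in ML cells. Mcm4 (chr16:15623897-15637400) was at 26.5, 27.7 and 45.3 in basal, 19.2, 17.1 and 31.0 in LP, 11.6, 4.80 and 10.7 in Lum Int and 21.2, 13.4 and 25.2 in ML cells. For these 3 subunits the diestrus value was the highest of its class except for Mcm4 in Lum Int cells, where puberty was slightly above it. Mcm5 (chr8:75109569-75128439) was at 27.5, 19.5 and 55.3 in basal, 25.6, 22.2 and 48.7 in LP, 18.2, 1.20 and 29.2 in Lum Int and 19.8, 13.2 and 32.6 in ML cells. Mcm6 (chr1:128331590-128359664) was at 37.9, 26.8 and 78.6 in basal, 52.2, 36.5 and 97.1 in LP, 29.1, 3.60 and 38.4 in Lum Int and 43.2, 29.1 and 49.8 in ML cells. Mcm7 (chr5:138164583-138172422) was at 33.4, 31.6 and 72.6 in basal, 26.6, 23.95 and 74.0 in LP, 28.4, 7.20 and 41.4 in Lum Int and 34.1, 28.7 and 61.0 in ML cells. All 3 of these subunits stood in the order diestrus, puberty, estrus in each class. The Mcm7 values are uncertain, since 32.7% of the 50-base words in the last 500 bases of its transcripts also lie in a processed pseudogene, Gm5487.

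The clamp and the enzymes of nucleotide supply followed the same order but for 2 places. Pcna (chr2:132249162-132253314), the sliding clamp, was at 107, 114 and 171 CPM in basal cells of puberty, estrus and diestrus, at 88.9, 85.0 and 162 in LP, at 59.0, 46.8 and 70.6 in Lum Int and at 70.0, 65.5 and 109 in ML cells. In basal cells Pcna stood close together in puberty and estrus, which were the first of these places. Tyms (chr5:30058202-30073617), which makes thymidylate, was at 99.95, 51.0 and 127 in basal, 73.9, 54.2 and 118 in LP, 37.8, 11.99 and 49.1 in Lum Int and 72.5, 58.5 and 73.3 in ML cells. Rrm1 (chr7:102441695-102469771), the large subunit of ribonucleotide reductase, was at 49.7, 31.6 and 69.2 in basal, 34.1, 31.9 and 58.1 in LP, 16.7, 5.997 and 32.2 in Lum Int and 32.1, 25.5 and 36.9 in ML cells. Its small subunit, Rrm2 (chr12:24708241-24714146), stood apart in its lineages. Rrm2 was at 126, 61.1 and 134 in basal cells, at 31.8, 21.7 and 58.8 in LP, at 25.5, 2.40 and 21.5 in Lum Int and at 51.1, 34.1 and 67.9 in ML cells, so that every basal value but the one of estrus was above all luminal values, and Lum Int cells, the other place, had puberty slightly above diestrus.

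Promoters of these genes were read for E2F-type words because the members moved together between stages. RefSeq windows on GRCm38.p6, from 250 bases before to 50 bases after each gene start, matched 30 of the 40 members in 34 windows. At least 1 of the words TTTGGCGC, TTTCCCGC, TTTCGCGC and TTTGCCGC, on either strand, lay in 12 of the 34 member windows (35.3%), against 2.26% of all 32851 windows. By gene, 12 of the 30 matched members (40%) held a word, against 2.60% of 27025 genes, and these were Cdc6, Cdca7, Clspn, Dtl, Hells, Mcm3, Mcm5, Mcm6, Mcm7, Pola1, Pold3 and Uhrf1. The word TTTGCCGC lay in none of them. CCAAT lay in 67.6% of the member windows and in 37.4% of all windows, and TTTGAA in 17.6% and 17.9%. Words on opposite strands can overlap, as they do in Mcm5 and at 1 place in Mcm6. The stretches below show the words that lie before the start in 6 members, outside every annotated exon, 5′ to 3′ on the strand of the gene, with the words in capitals.
Mcm6, chr1:128359721-128359839, minus strand: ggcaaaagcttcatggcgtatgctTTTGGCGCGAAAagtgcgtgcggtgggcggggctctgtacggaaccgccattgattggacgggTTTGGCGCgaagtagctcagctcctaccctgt
Mcm5, chr8:75109332-75109391, plus strand: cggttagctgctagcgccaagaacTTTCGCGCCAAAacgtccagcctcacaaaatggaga
Cdc6, chr11:98907989-98908044, plus strand: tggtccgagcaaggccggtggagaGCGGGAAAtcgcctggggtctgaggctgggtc
Pola1, chrX:93632262-93632317, minus strand: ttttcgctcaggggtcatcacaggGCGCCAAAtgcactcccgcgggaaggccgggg
Uhrf1, chr17:56304104-56304159, plus strand: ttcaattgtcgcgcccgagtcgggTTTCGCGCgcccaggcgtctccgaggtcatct
Dtl, chr1:191575545-191575576, minus strand: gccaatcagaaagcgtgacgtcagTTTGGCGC
The stretches of Cdc6 and Uhrf1 lie inside the spans of these genes as annotated, and the other 4 lie outside every annotated gene. A match is a description of the letters and not a binding site.

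Which lineage carried more of the replication transcripts was tested over 12 sums, 4 classes in 3 libraries, with edgeR's quasi-likelihood test and the library as a block, at an adjusted p under 0.05. All 40 members entered. Against the mean of LP and ML cells, 17 members were higher in basal cells and 1 was lower, where 28.8% of 11626 genes were called higher and 25.2% lower. The median log2 fold change of the members was 0.48, against 0.02 over all genes tested, and 34 of 40 estimates were positive. The called genes stood in most roles: Mcm3 and Mcm4 of 8 helicase genes, Pcna, Pola1, Rpa2 and Dscc1 of 8 polymerase and clamp genes, Rrm1 and Rrm2 of 3 for nucleotide supply, Tipin, Usp1 and Dtl of 4 for fork protection and checkpoint, Nasp, Atad2, Slbp and Hells of 6 for chromatin and histones, Ung of 5 for repair, and Cdca7 of 4 G1/S regulators and others. Neither of the licensing genes, Cdc6 and Gmnn, passed. Without the block 4 of 39 members were higher (Rrm2, Cdca7, Nasp and Slbp) and 1 was lower (Wdr76). Of 11144 genes, 2321 were then higher and 1998 lower, so the share of members called higher was below that of all genes. Most of the calls above thus rest on comparing lineages within a library.

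Rrm2 had the largest difference among the members higher in basal cells, with a log2 fold change of 1.31 (SE 0.17, adjusted p = 7.27e-06) and log2 differences of 1.62, 1.14 and 1.07 within the puberty, estrus and diestrus libraries. Cdca7, a target of MYC and E2F, was at 14.3, 15.4 and 25.3 CPM in basal cells of puberty, estrus and diestrus, 10.7, 13.1 and 23.5 in LP and 4.13, 3.64 and 8.02 in ML cells. It was higher in basal cells by 1.04 (SE 0.22, adjusted p = 0.000819), with its ML values below all basal and LP values. Nasp, a histone chaperone, was at 140, 108 and 130 in basal, 87.1, 57.0 and 107 in LP and 47.2, 34.8 and 59.3 in ML cells, and was higher in basal cells by 1.04 (SE 0.14, adjusted p = 1.09e-05). Atad2, a chromatin ATPase, was at 16.6, 10.4 and 20.05 in basal, 5.18, 3.99 and 12.6 in LP and 8.82, 7.51 and 12.9 in ML cells, and was higher by 0.92 (SE 0.23, adjusted p = 0.00318). Basal and luminal levels of Atad2 overlapped between libraries but not within one. Wdr76 was the single member lower in basal cells, by -1.91 (SE 0.52, adjusted p = 0.00598), and rested on 7, 2 and 6 UMIs in the basal cells of the 3 libraries. Its call was absent without the estrus library. Prim1, Fen1, Pold3, Mcm6 and Gins2 were the other members with negative estimates, and did not pass.

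**Figure D2:**
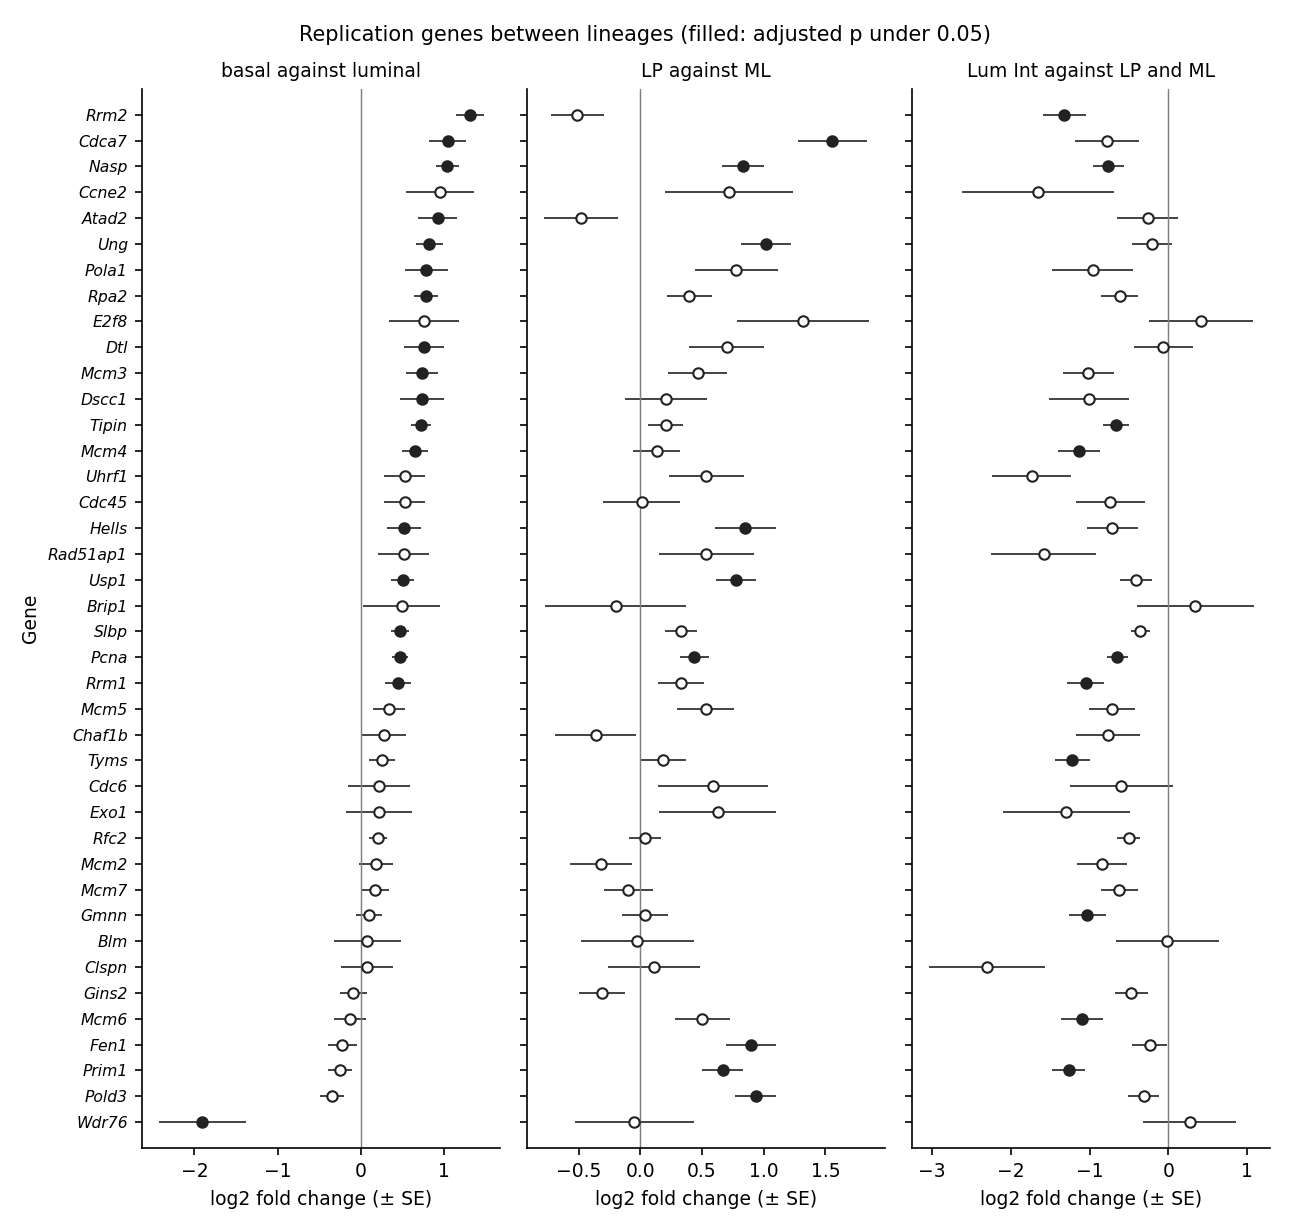
Log2 fold changes (x axis, bars ± SE) of the 40 replication genes (rows) for basal against luminal, LP against ML, and Lum Int against LP and ML cells, filled where the adjusted p was under 0.05. Filled points lie to the right in the first panel but for Wdr76, to the right in the second, and to the left in the third.

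Between the luminal lineages, 9 members were higher in LP than in ML cells and none was lower, where 22.2% of all genes were called higher and 19.9% lower. A count of 9 in 40 is close to that share. The median of the members was 0.42, against 0.03 over all genes. An unadjusted p under 0.05 was found for 17 of 40 members and for a larger share of all genes, 5687 of 11626. Cdca7 led, with 1.56 (SE 0.28, adjusted p = 0.000342). Ung, the uracil-DNA glycosylase, was at 16.7, 16.5 and 42.2 CPM in LP cells of puberty, estrus and diestrus and at 10.5, 5.92 and 19.5 in ML cells, and was higher by 1.02 (SE 0.20, adjusted p = 0.000811). Pold3, a subunit of DNA polymerase delta, was at 30.6, 35.9 and 35.0 in LP and 16.7, 16.4 and 19.8 in ML cells, a difference of 0.93 (SE 0.17, adjusted p = 0.000337), and its LP and ML values did not overlap. Fen1, the flap endonuclease of lagging strands, was at 80.1, 31.9 and 54.9 in LP and 28.5, 25.03 and 34.1 in ML cells, a difference of 0.90 (SE 0.20, adjusted p = 0.00187). The other genes that passed were Hells, Nasp, Usp1, Prim1 and Pcna, with 0.44 to 0.85. None of the 8 helicase genes and none of the 3 genes for nucleotide supply passed. Without the diestrus library Pcna, Prim1 and Hells were no longer called, Gins2 was called lower, and the median of the members fell to 0.11. Without the block Cdca7 and Pold3 remained, 2 of 39 members, beside 1667 of 11144 genes called higher and 1348 lower. The share of members called higher was then below that of all genes.

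Part of the replication genes were lower in Lum Int cells than in LP and ML cells. Here 10 members were lower and none was higher, where 0.662% of all genes were called lower and 3.83% higher. The median was -0.73, against 0.03 over all genes, and 3 of 40 estimates were positive. Prim1, the small primase subunit, was at 16.7, 8.40 and 29.2 CPM in Lum Int cells of puberty, estrus and diestrus, below LP and ML cells within each library. The log2 fold change of Prim1 was -1.27 (SE 0.21, adjusted p = 0.00147). All 3 genes for nucleotide supply were lower, with Rrm2 at -1.32 (SE 0.28, adjusted p = 0.00951), Tyms at -1.22 (SE 0.22, adjusted p = 0.0034) and Rrm1 at -1.05. Mcm4 was lower by -1.13 (SE 0.26, adjusted p = 0.0201), and Mcm6, Gmnn, Nasp, Tipin and Pcna by -0.65 to -1.09. These calls rest on 345 to 1120 UMIs of the 40 genes per library and depend on few libraries: 6 members passed without puberty, 2 (Prim1 and Tyms) without estrus, 6 without diestrus, 2 without the 5% of cells with most UMIs and 0 without the block. Of 11098 to 11495 genes, 7 to 38 were called lower in these settings. An alternative chosen after seeing the data left out cells that held at least 5 members and also all cells under 2000 UMIs. In it, 0 of the 31 members that could be tested passed, and Rrm2 had 0.10. The cells with at least 5 members were chosen by these same genes, and leaving out the shallow cells alone was not tested.

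With the same cells left out, the other lineage contrasts had 17 members higher and 2 lower (Wdr76 and Pold3) in basal cells and 9 higher and 1 lower (Chaf1b) in LP cells, of 31 tested. Of 11153 genes, 3189 were higher and 2812 lower in basal cells, and 2451 higher and 2221 lower in LP cells. Dscc1 and Hells lost their calls in basal cells and Ung and Hells in LP cells, and the median of the members went from 0.42 to 0.12 in LP against ML cells.

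Between the adult libraries a larger share of the replication genes than of all genes stood past 2-fold, upward in diestrus. A member entered this count when it reached 20 CPM in a compared sum. Past 2-fold means a log2 ratio above 1 or below -1 after adding 1 CPM, with no test. In basal cells 14 of 27 members stood above 1 in diestrus and none below -1, where 6.17% of 5302 genes stood above and 4.28% below. In LP cells 16 of 26 stood above and none below, against 6.66% and 4.95% of 5237 genes. In ML cells 3 of 22 (Hells, Mcm5 and Mcm7) stood above and none below, against 4.99% and 1.66% of 5013 genes. The medians of these members were 1.08, 1.11 and 0.68, and those of all genes -0.03, -0.05 and 0.01. A gene can enter through the library where it is high. With the limit set on the mean level instead, an alternative added after seeing the data, 14 of 25, 15 of 24 and 2 of 18 members stood above 1, beside 5.70%, 5.996% and 4.43% of all genes.

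By role, the helicase genes had 6 of 7 past 2-fold in basal cells, 6 of 7 in LP cells and 2 of 7 in ML cells. Of the polymerase and clamp genes, Prim1 in basal cells and Rpa2 in LP cells were the only ones past 2-fold, of 6 at level in each, and none of 5 was in ML cells. All 3 genes for nucleotide supply were past 2-fold in basal cells, and Rrm2 and Tyms were in LP cells. The fork genes Tipin, Usp1 and Dtl were past 2-fold in LP cells, with basal log2 ratios of 0.85 to 0.98. In ML cells Dtl had a log2 ratio of 1.39 (0.75 to 2.51), but it did not reach the minimum level there. Whether the ratios differ between lineages was not tested, since each stage has 1 library.

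Hells, a chromatin remodeller of the SNF2 family, was at 9.98 CPM in basal cells of estrus and 43.3 in diestrus, a log2 ratio of 2.01 (1.66 to 2.60), at 10.3 and 43.7 in LP cells (1.99, 1.37 to 2.89) and at 3.87 and 23.2 in ML cells (2.31, 1.82 to 3.43). Hells was the gene with the highest ratio in basal and ML cells. In ML cells it reached the minimum of 20 CPM in diestrus only, and it did not enter there with the limit set on the mean level. Mcm3 had ratios of 1.71 (1.43 to 2.11) in basal and 2.35 (1.73 to 3.28) in LP cells, and Mcm2 had 1.57 (1.26 to 2.01) and 2.31 (1.65 to 3.37). In ML cells Mcm3 had 0.82 (0.36 to 1.39) and Mcm2 0.64 (0.27 to 1.05). Chaf1b, a subunit of the chromatin assembly factor that places histones behind the fork, was at 12.7 in estrus and 43.1 in diestrus in basal cells (1.69), and at 10.8 and 41.5 in LP cells (1.84). In ML cells the next highest were Mcm5 (1.24, 0.84 to 1.79), Mcm7 (1.06, 0.76 to 1.42) and Rpa2 (0.98, 0.56 to 1.503), a subunit of the single-strand binding protein. At the other end, Slbp, which binds the stem-loop of histone mRNA, had -0.04 (-0.17 to 0.08) in basal, 0.37 (0.16 to 0.58) in LP and 0.12 (-0.05 to 0.29) in ML cells. Pold3 had 0.13 (-0.28 to 0.56) in basal and -0.04 (-0.51 to 0.44) in LP cells, and Gins2 in ML cells had 0.28. The interval of Slbp in basal cells thus lay wholly below the lower bounds of Hells, Mcm2, Mcm3 and Chaf1b.

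**Figure D3:**
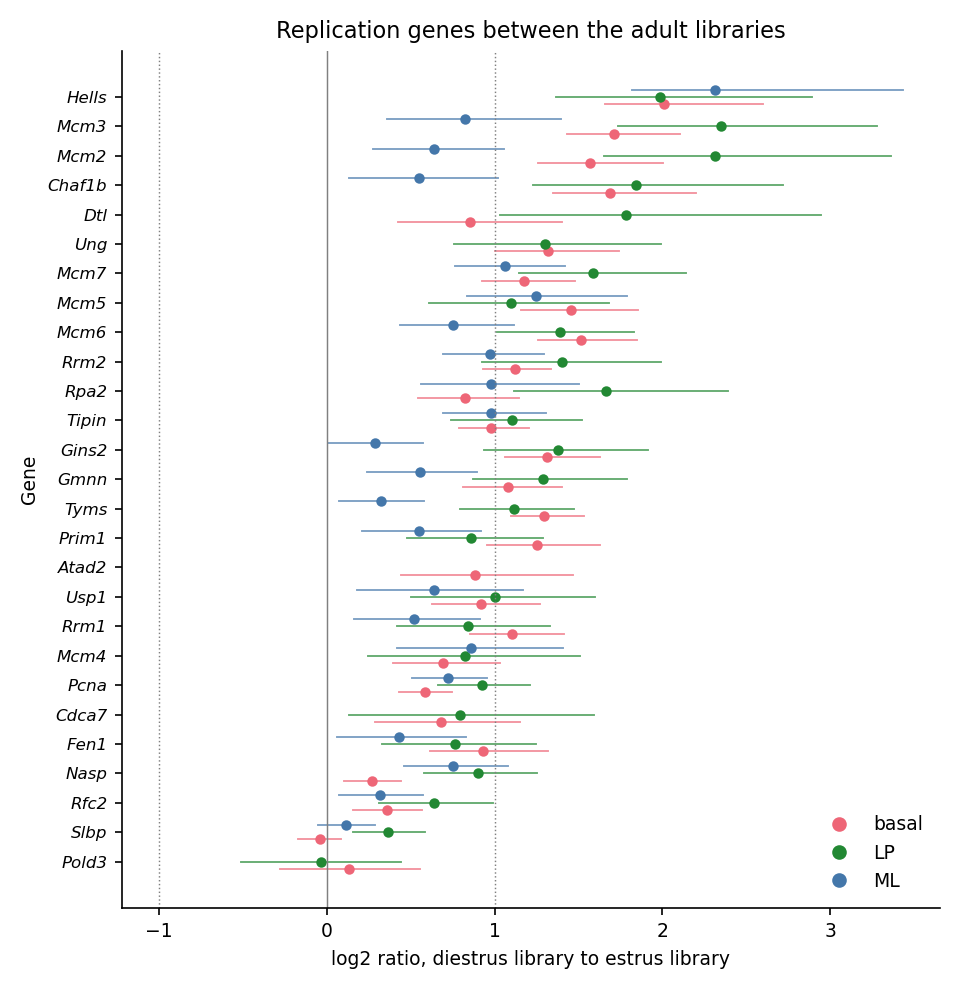
Log2 ratio of the diestrus to the estrus library (x axis, bars for 95% counting intervals) for the replication genes that reached 20 CPM (rows), in basal, LP and ML cells (colour). Hells, Mcm3, Mcm2 and Chaf1b stand at the top and Slbp and Pold3 lie about 0, with ML points mostly left of the others.

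Puberty against the mean of the adult libraries gave no member past 2-fold in any of the 3 lineages. Of all genes, 2.95% stood above 1 and 3.15% below -1 in basal cells, 3.32% and 1.46% in LP cells and 3.02% and 1.19% in ML cells. The medians over the members at level were -0.12, -0.35 and 0.00 for basal, LP and ML cells. The highest ratios in basal cells were 0.41 for Slbp, 0.39 for Fen1, 0.37 for Rrm2 and 0.29 for Dtl, and the lowest were -0.63 for Mcm7 and -0.55 for Mcm3. In LP cells Fen1 was highest at 0.87, from 80.1 in puberty against 31.9 and 54.9 in the adult libraries, followed by Slbp at 0.22, Gins2 at 0.10 and Nasp at 0.08, while Chaf1b was lowest at -0.99 and Mcm7 next at -0.86. In ML cells the span was narrow, from 0.24 for Gins2, 0.15 for Chaf1b and 0.13 for Tyms and Mcm4 down to -0.34 for Rpa2 and -0.39 for Mcm7. The adult mean joins a high and a low library, so Mcm7 in LP cells lay at 26.6 in puberty between 23.95 in estrus and 74.0 in diestrus. Without TMM scaling 4 of 26 members, Chaf1b, Mcm7, Ung and Cdca7, stood below -1 in LP cells, beside 4.70% of 5321 genes.

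Single cells show how many carried the genes together. Each cell was thinned to 2000 UMIs, shallower cells were left out, and a cell was counted as above the cut when at least 5 of the 40 members had a UMI. In basal cells 107 of 867 were above the cut in puberty, which is 12.3% (exact 95% interval 10.2 to 14.7), 50 of 949 in estrus, 5.27% (3.94 to 6.89), and 214 of 856 in diestrus, 25% (22.1 to 28.0). In LP cells 6.83% (5.64 to 8.17), 3.08% (1.60 to 5.31) and 22.0% (18.5 to 25.9) were above it, from 109 of 1597, 12 of 390 and 110 of 499 cells. In ML cells 6.49% (5.46 to 7.65), 5.03% (3.55 to 6.89) and 9.74% (7.52 to 12.4) were above it, from 132 of 2034, 36 of 716 and 60 of 616 cells. Basal and LP cells of diestrus thus stood apart from every other group, with intervals that overlap each other and no other. In Lum Int cells 9 of 226 (3.98%), 0 of 111 and 7 of 90 (7.78%) were above the cut, where 0 of 111 allows a share of up to 2.70%.

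The ratio of the shares between diestrus and estrus was 4.75 (3.54 to 6.36) for basal, 7.16 (4.01 to 12.8) for LP and 1.94 (1.30 to 2.89) for ML cells. Without the 5% of cells with most UMIs the ratios for basal and LP cells were 10.3 and 36.9, and without thinning the LP ratio was 3.88. The LP share of estrus was as low as 0.546% over the settings tried, against 3.08% (12 of 390 cells). The ratio of 36.9 thus rests on very few LP cells of estrus, and no interval was computed for it. Cells below the depth limit made up 18.5% to 27.4% of basal cells and 2.59% to 17.2% of the other classes. Without thinning the shares were 19.1%, 10.4% and 38% in basal, 12.4%, 9.13% and 35.4% in LP and 14.2%, 12.8% and 20.1% in ML cells, in the same order of stages. In Lum Int cells they were 14.2%, 13.2% and 33.3%, which is the highest share of the 4 classes in estrus, and ML cells of estrus also stood above basal cells. Without the 5% of cells with most UMIs basal cells likewise stood above ML cells in 2 of 3 libraries. The stage order held in basal, LP and ML cells under all 8 other settings tried. The cut divides a range: among basal cells of diestrus 69 held 4 members and 48 held 5. Cells above the cut had more UMIs before thinning, with medians of 6275 against 3260 in basal cells of puberty and 9650 against 3022 in estrus. Totals were higher above the cut in every class and library with such cells, and the part of total RNA in the result was not tested. Above the cut the 40 genes were at 4440 to 5210 CPM in basal, LP and ML cells, and below it at 774 to 903 in basal, 541 to 695 in LP and 500 to 584 in ML cells, levels fixed in part by the cut itself. With the cells above the cut and those below the depth limit left out, the log2 ratio of the summed level between diestrus and estrus was 0.44 for basal, 0.46 for LP and 0.27 for ML cells.

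**Figure D4:**
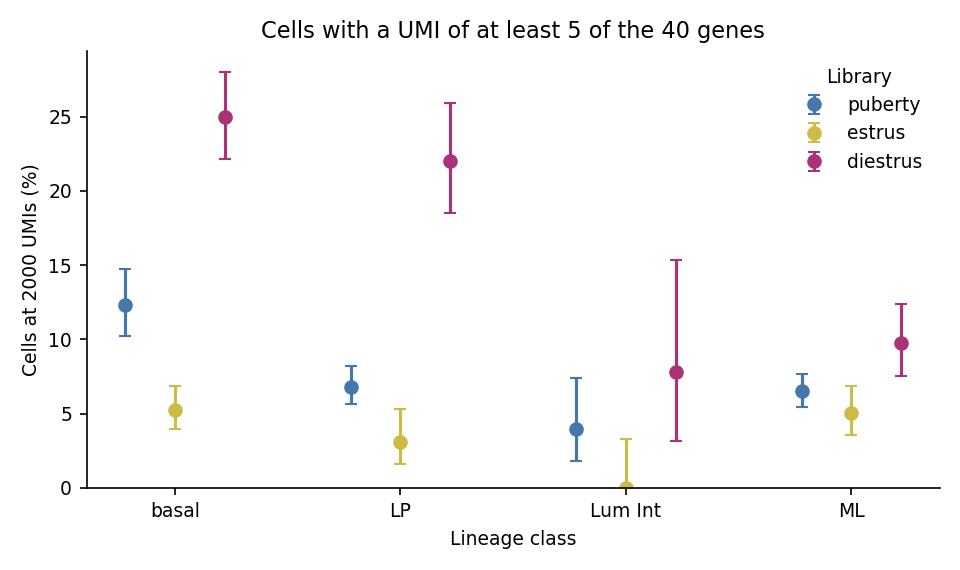
Share of cells (y axis, % of cells thinned to 2000 UMIs) with a UMI of at least 5 of the 40 replication genes, by class (x axis) and library (colour), with exact binomial 95% intervals. Diestrus reaches 25% in basal and 22.0% in LP cells and 9.74% in ML cells, and estrus is lowest in each.

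Members differed in how far their UMIs lay in such cells. For each gene the cut was set on the other 39 members, so that a gene did not count itself. Over all classes 846 of 8951 cells were above the cut with all 40, and they held 44.1% of the UMIs of the 40 genes. By gene this share ran from 14.0% to 75.9%, with a median of 47.6%, and 16 members had over 50%. Rad51ap1, a gene of recombination repair, had 75.9% of 58 UMIs there, Clspn, the checkpoint mediator claspin, 75.6% of 45, Exo1, an exonuclease of mismatch repair, 70.3% of 37, and Ccne2, which encodes a cyclin E, 69.4% of 36. Rrm2 had 69.8% (66.3 to 73.1) of 734 UMIs, the narrowest interval of these 5, and was seen in 39.3% of cells above the cut and 2.27% of cells below it. At the low end stood Wdr76 with 14.0% of 43 UMIs, Slbp with 17.7% (16.4 to 19.1) of 3042, Pold3 with 19.5% of 354, Cdca7 with 23.4% of 188 and Nasp with 24.7% of 1265. Slbp was seen in 44.2% of cells above and 23.4% below the cut, Pcna in 43.2% and 11.1%, and Tyms in 42.8% and 5.23%.

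Free RNA can set a floor for such shares, and genes of other lineages were read for it. Whether their UMIs come from free RNA, doublets or the cell itself was not tested. Acta2, a basal gene, was seen in 2.70% to 6.66% of ML cells, and Csn3, an LP gene, in 2.11% to 18.1% of basal cells at the same depth. Lower shares were seen for Wfdc18 (0.316% to 3.34%) and Areg (0.527% to 6.81%) in basal cells and for Hbb-bs (0% to 0.256%) in basal, LP and ML cells. The 5 red cell markers that include Hbb-bs were together at 0.489 to 541 CPM in these 3 classes. At the value of 541, in ML cells of diestrus, Hbb-bs and Hbb-bt were at 0. The shares above span the 2.27% of cells below the cut with Rrm2, so no floor for a single member can be read from them. Slbp and Pold3, with the lowest ratios between the adult libraries in basal and LP cells among members at 20 CPM, were among the 5 least concentrated members. Below that level Ccne2 and Rad51ap1, among the 5 most concentrated, also had low ratios in LP cells, at 0.22 (-1.89 to 2.97) and 0.25 (-0.74 to 1.37). The share of UMIs above the cut pools the 3 libraries, and 33 of 40 members had a higher share in diestrus than in estrus. That share and the ratio between the adult libraries are therefore not independent. For members with an E2F-type word in the promoter the median share was 51.8% (12 genes, 19.5% to 75.6%), for those without a word 46.2% (18 genes) and for those with no matched window 42.2% (10 genes), so these groups overlapped over most of their range.

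**Figure D5:**
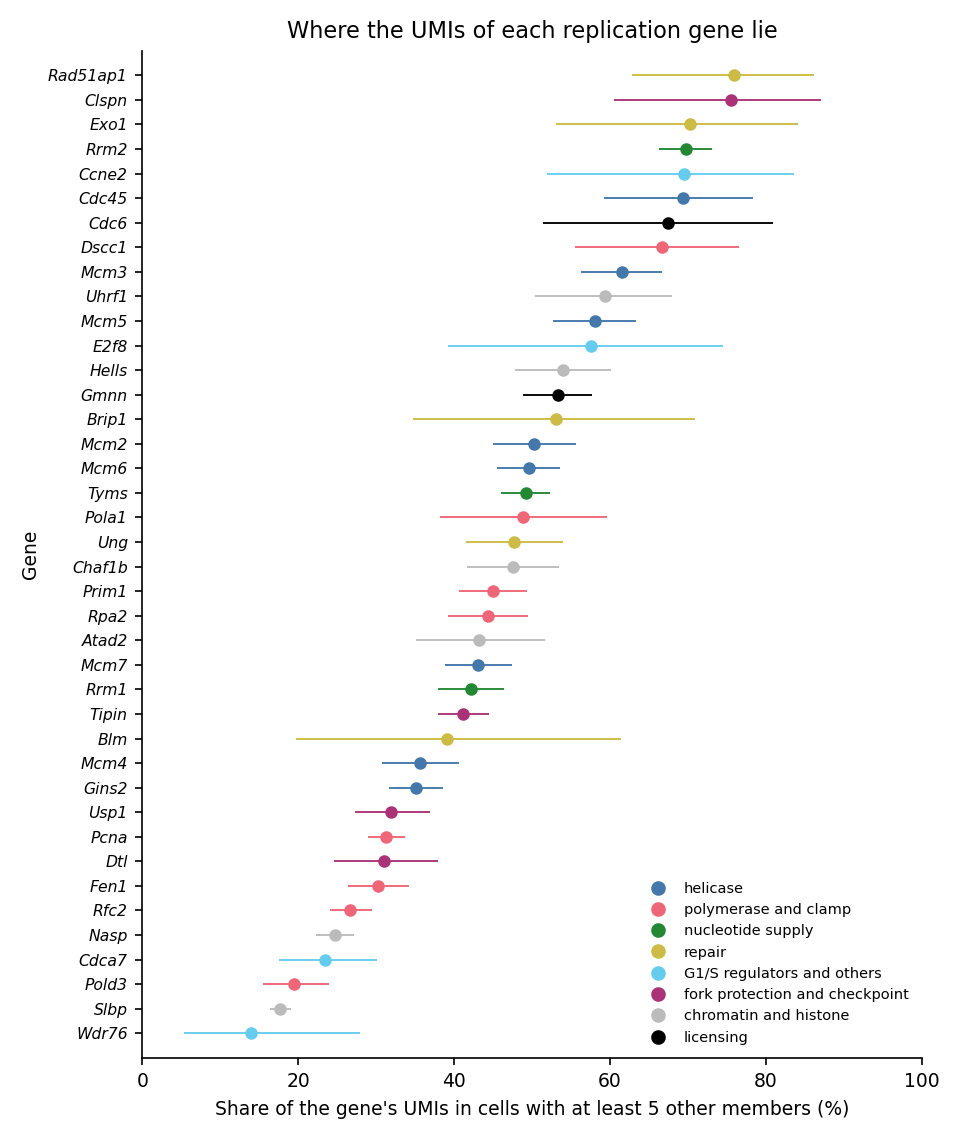
Share of each gene's UMIs (x axis, %, bars for exact binomial 95% intervals) that lay in cells with at least 5 of the other 39 members, for the 40 replication genes (rows) coloured by role. Rad51ap1, Clspn, Exo1, Rrm2 and Ccne2 lie at 69.4% to 75.9% and Nasp, Cdca7, Pold3, Slbp and Wdr76 at 14.0% to 24.7%.

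Cells above the cut also carried mitosis genes more often. At least 3 of 20 mitosis genes were seen in 29.0%, 42% and 30.8% of basal cells above the cut in puberty, estrus and diestrus, against 6.45%, 2.002% and 11.7% of those below it. In LP cells the shares were 42.2%, 50% and 36.4% against 3.43%, 2.38% and 4.63%, and in ML cells 46.2%, 72.2% and 48.3% against 3.15%, 3.24% and 3.42%. The LP share of estrus rests on 6 of 12 cells. Most basal cells with the replication genes thus lacked this set of mitosis genes in all 3 libraries, whereas in ML cells of estrus most held it.

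Within the cells above the cut, members split by whether mitosis genes were present. Between cells with none of the 20 mitosis genes and cells with at least 3, 15 members differed in the same direction in all 3 libraries. Seen more often with mitosis genes were 9 members: Rrm2 (22.2% without and 49.2% with), Tyms (31.2% and 56.9%), Rrm1 (18.3% and 28.3%), Prim1 (21.7% and 27.0%), Pcna (40.6% and 45.2%), Usp1, Uhrf1, Ccne2 and Brip1. Seen less often were 6: Mcm3 (26.9% and 15.8%), Mcm4 (18.5% and 8.56%), Ung (17.1% and 7.25%), Mcm2 (21.8% and 13.2%), Hells (14.4% and 9.03%) and Chaf1b (16.2% and 12.5%). No test was made, as the cells were chosen by these genes, and the share of other genes that keep a direction in 3 libraries was not computed, so the count of 15 is a description only. All cells were at 2000 UMIs.

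A list of 54 further genes of the replication machinery was set beside the members. Of these, 50 were tested between lineages, and 9 were higher and 5 lower in basal cells, or 18% and 10%, below the shares of all genes given above. Ccne1, a cyclin E gene, was higher by 1.53 (adjusted p = 0.000613), Dut, which removes dUTP, by 1.03 (adjusted p = 2.72e-05), and Msh6, of mismatch repair, by 0.97. Asf1b, a histone chaperone, was lower by -1.40 (adjusted p = 7.15e-05), Pold4 by -0.84, Dnmt1 by -0.76, and Rnaseh2a was lower as well. In LP against ML cells 8 were higher, or 16%, also below the share of all genes, led by Donson (1.19), Cdt1 (1.18, adjusted p = 0.000447) and E2f1 (0.85), and 1, Rpa3, was lower (-0.56). In Lum Int cells 3, or 6%, were lower, beside 0.662% of all genes. Among them were Tk1 (-1.43) and Rfc5 (-1.04). Lig1, which joins Okazaki fragments, passed in none of the 3 contrasts. Of the further genes at 20 CPM, 9 of 28 in basal, 7 of 26 in LP and 0 of 22 in ML cells were past 2-fold in diestrus. Of all genes, 6.17%, 6.66% and 4.99% were.

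In cells above the cut Tk1, thymidine kinase, was seen in 24.8% of basal, 26.8% of LP and 32.5% of ML cells, against 1.956%, 1.64% and 2.20% below it. Lig1 was seen in 17.3%, 26.0% and 21.5% against 1.74%, 2.17% and 1.78%, Cdt1 in 7.82%, 10.4% and 8.77% against 1.52%, 2.44% and 0.924%, and Dut in 62.8%, 45.5% and 59.2% against 26.1%, 9.36% and 11.6%. All 4 genes were thus seen more often above the cut in each library and lineage. Pold4, the smallest subunit of DNA polymerase delta, went the other way in all 3 libraries of each lineage, with 7.55%, 5.63% and 10.1% above the cut and 12.1%, 15.3% and 21.2% below it. Of the mitosis genes, Top2a was seen in 20.5% of basal, 18.6% of LP and 27.2% of ML cells above the cut, against 1.56%, 0.98% and 1.15% below it, and Mki67 in 5.39%, 7.36% and 9.21% against 1.26%, 1.02% and 0.54%. Between lineages neither Mki67 nor Top2a passed. Of the 20 mitosis genes, Cenpa, Bub1, Kif23 and Ccnb1 (20%) were higher and Birc5 (5%) was lower in basal cells. Both shares were below those of all genes, 28.8% and 25.2%. None passed between LP and ML cells, where 22.2% of all genes were called higher and 19.9% lower. There 1 of the 20 had an unadjusted p under 0.05, beside 5687 of 11626 genes. In Lum Int cells 10 (50%) were lower, against 0.662% of all genes.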

How the data were processed

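Single-cell RNA of mouse mammary epithelium was measured in 4 tables. The authors aligned reads to mm10 and made the deposited counts of UMIs per gene and barcode with Cell Ranger 2.0 (per the methods and the submitters' processing notes), without normalization, so the counts depend on 3′ end annotation and on the cell calling. The members and gene lists were chosen with earlier results of these data known. A cell was left out as not epithelial when it held 3 or more of the 5 markers of an immune, endothelial or fibroblast list and more UMIs of these than of keratins. Seed cells led by 1 in z-score over 8 markers, signatures of at most 100 genes per lineage were taken from seeds (at least 2-fold, in at least 10% of cells), and the position between LP and ML signatures (1/3 to 2/3) defined Lum Int. Cells mixed for basal and luminal signatures (30 to 96 per library) stayed out, and 4.27% of the 164 with 2000 UMIs were above the cut. No doublet caller was run, so cells with most UMIs were left out as an alternative. UMIs were summed per class and library (12 sums) and tested with edgeR 4.0.16 in R 4.3.3 (filterByExpr, TMM, library block, Benjamini-Hochberg over 11626 genes), with DESeq2 1.42.0 as an alternative. With the block, the p-values measure how far the differences between classes vary over 3 libraries, with 1 spread for all 4 classes. Each library is of another stage, so that spread includes any change of the lineage differences with stage. The block is used because the classes of a library come from the same suspension: over 18 pairs of classes, deviations from class means had correlations of 0.456 to 0.625 (6806 genes). Stage ratios used a pseudocount of 1 CPM and a minimum of 20 CPM. Intervals are 95% exact Poisson or Clopper-Pearson and cover counting error, and a count of 0 was given the limit of 3 counts. The edgeR fit was tested on simulated data. Other steps used Python 3.11.15 with numpy 2.4.6 and scipy 1.17.1. Named were the 4 called members with the largest change per direction and lineage contrast, the 4 highest and 2 lowest per stage ratio, the 5 highest and 5 lowest by share of UMIs above the cut, Pcna, Mcm2 to Mcm7, Tyms, Rrm1 and Rrm2, and of the further replication genes the 3 with the largest change per direction with Lig1, Tk1, Dut and Cdt1. Other genes were named after their values were seen. Some genes that this rule names are not reported here.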

Additional observations from a re-analysis of the deposited data

Results flagged for a closer look

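The summed level of 20 mitosis genes moved apart from the replication genes between the adult libraries. In basal cells these genes were at 458 CPM in estrus and 1376 in diestrus, a log2 ratio of 1.59 (1.52 to 1.66), and in LP cells at 516 and 907, a ratio of 0.82 (0.71 to 0.93). In ML cells they were at 794 and 663, a ratio of -0.26 (-0.34 to -0.18), while the 40 replication genes had a ratio of 0.63 there. The share of ML cells with at least 3 of the 20 mitosis genes did not show this order, at 6.70% in estrus and 7.79% in diestrus. The lineages were singled out because their ratios have opposite signs. The difference was not tested, since each stage has 1 library, and the intervals cover counting error only. Of the mitosis genes at 20 CPM, 18 of 18 in basal, 5 of 14 in LP and 0 of 11 in ML cells stood past 2-fold in diestrus, and 1 in ML cells, Plk1, stood past 2-fold in estrus. Of all genes, 6.17%, 6.66% and 4.99% stood past 2-fold in diestrus, and 1.66% did in estrus in ML cells.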

How the results depend on the processing

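With 1 library per stage, the library served as the replicate block of the lineage test. Without that replicate block 5 members were called for basal against luminal cells, 2 for LP against ML and 0 for Lum Int, against 18, 9 and 10. Of 11144 genes, 2321 were then higher and 1998 lower, 1667 and 1348, and 161 and 7, in these contrasts. Leaving out 1 library at a time gave 14 to 19, 7 to 9 and 2 to 6 of 38 to 40 members. Of 11098 to 11495 genes, 2815 to 2916 were then higher and 2112 to 2557 lower for basal against luminal cells. For LP against ML these were 1796 to 2013 and 1687 to 2065, and for Lum Int 271 to 296 and 30 to 38. The Lum Int count was 18 of 40 with no filter on low counts, where 229 of 17440 genes were lower. It was 2 of 38 without the 5% of cells with most UMIs (16 of 11398 genes lower) and 4 of 40 at an adjusted p under 0.01 (25 of 11626). In cells below the cut only, an alternative added after seeing the data, it was 0 of 31 (28 of 11153), and Rrm2 reversed to 0.10. The LP count was 14 of 40 in cells with at least 1000 genes and under 10% mitochondrial UMIs. There 2438 of 11441 genes were higher. The log2 ratio of the summed level between diestrus and estrus was 0.80 in basal and 0.42 in ML cells without TMM factors, 1.26 in basal and 1.62 in LP cells without the top 5% of cells, 0.44, 0.46 and 0.27 in basal, LP and ML cells below the cut, 1.03, 1.26 and 0.73 as a mean over members, and 1.29 in LP cells by highest seed score. For puberty against the adult mean it was -0.12, -0.56 and -0.23 in basal, LP and ML cells without TMM factors, 0.15, 0.11 and 0.049 below the cut, -0.071 in basal and 0.0058 in ML cells by highest seed score, 0.053 in basal and -0.15 in LP cells with the gene and mitochondrial limits, -0.069 and -0.35 in basal and LP cells as a mean over members, and 0.098 in ML cells without the top 5%, so its sign changed in all 3 classes. The ratio of shares of cells above the cut was 10.3 in basal and 36.9 in LP cells without the top 5%, and 3.88 in LP cells without thinning. The value of 36.9 rests on very few LP cells of estrus above the cut. At 50 CPM 8 of 15 members in LP and 1 of 9 (Mcm7) in ML cells were past 2-fold in diestrus. Of all genes, 7.76% and 6.56% were. For puberty in LP cells 4 of 26 stood below -1 without TMM factors and 1 of 26 (Mcm7) with the second puberty table. Of all genes, 4.70% and 2.14% did. The settings with cells below the cut also leave out cells under 2000 UMIs. The causes were not tested. No lineage by highest seed score was made for Lum Int cells, which that rule does not define. Counting depth limits the 12 sums most in Lum Int cells of estrus.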

Other observations

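Genes of the G1 control and the hormone receptors were set beside the replication genes in the same thinned cells, and are named where at least 5% of a class had a UMI. Cdk4, the kinase partner of the D cyclins, was seen in 71.4% of basal, 63.2% of LP and 64.5% of ML cells above the cut of 5 replication genes, against 42.3%, 25.8% and 40.9% below it. Ccnd1 was seen in 34.0%, 51.9% and 32.0% against 9.08%, 24.7% and 19.1%, Ccnd2 in 39.9% against 19.0% of basal cells, and Ccnd3 in 23.5%, 18.2% and 17.5% against 12.4%, 8.07% and 10.9%. The inhibitor gene Cdkn2c was also seen more often above the cut, in 9.70%, 9.09% and 7.89% against 2.69%, 4.83% and 2.26%. Cdkn1a, the p21 gene, went the other way in basal and LP cells of all 3 libraries, with 19.9% and 21.2% above against 45.9% and 44.6% below. In ML cells it had 22.8% and 26.6% and was lower above the cut in 2 libraries. Cdkn1c was seen in 7.55% of basal cells above and 9.08% below, and Rb1 in 2.16% of LP cells above and 5.63% below. Each was lower above the cut in 2 libraries and higher in 1.

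Prlr, the prolactin receptor gene, was seen in 57.5% of ML cells above the cut and 82.7% below it, lower above it in all 3 libraries, and in 6.49% and 10.3% of LP cells. Pgr was seen in 5.70% of ML cells above the cut and 7.68% below it in the 3 libraries pooled. Within libraries Pgr was seen more often above the cut in 2 and less often in 1, so its direction was not stable. Prlr and Pgr were also among the 8 genes whose scores seeded the ML class. The cells above and below the cut were chosen by the replication genes and all had 2000 UMIs, and no test was made.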
